A study of Mus musculus with 11 samples.

Results

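Cd180 and the Toll-like receptor genes were examined in mouse skin after a single agent, ABBV-075, an inhibitor of the BET bromodomain proteins, which read acetylated histones and help drive transcription. The set held 8 genes: Cd180, its partner Ly86, the co-receptor Cd14, the receptors Tlr2, Tlr4, Tlr3 and Tlr7, and the adaptor Myd88. They were measured by 14 probe sets annotated to 1 of these genes alone, out of 45101 probe sets and 18194 genes on the array. Where a gene had several probe sets, the one brightest over all 11 arrays was taken as its main measure. The probe sets were chosen by their brightness on these arrays, and the genes were put together with earlier results of them known, the low Cd180 values included, so their values are given as a description.

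The ABBV-075 dose was 1 mg/kg. With each Affymetrix array taken as 1 mouse, skin came from 4 dosed mice at 6 h, another 4 at 24 h and 3 vehicle mice. The labels give neither the collection time of the vehicle skin nor a strain, age or sex. Nothing states whether the vehicle mice were handled alongside one time point or both, and both comparisons with vehicle share the same 3 vehicle arrays. Replicates are named by the numbers in the labels, which are 1, 2, 3 and 5 at 6 h, 1 to 4 at 24 h, and 1, 3 and 4 in vehicle.

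Toll-like receptors are innate immune receptors that recognise microbial molecules, in skin chiefly on macrophages and dendritic cells but also on keratinocytes and fibroblasts. Tlr2 and Tlr4 sit at the cell surface and sense bacterial lipoproteins and lipopolysaccharide, while Tlr3 and Tlr7 sense double- and single-stranded RNA inside endosomes. Most of them signal through the adaptor Myd88 to NF-kappaB, with Tlr3 as the exception. Cd180, also called RP105, resembles Tlr4 outside the cell but lacks the signalling domain, is found on B cells, macrophages and dendritic cells, and is carried to the surface by Ly86, also called MD-1.

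The promoters of Cd180, Ly86 and Myd88 are shown because these genes make up the Cd180 receptor pair and the shared adaptor, whose values over the arrays ran differently. Each is the 250 bases before the annotated start in RefSeq, build GRCm38.p6, written 5′ to 3′ on the strand of the gene. Cd180 spans chr13:102693297-102693546 on the plus strand, at the first of its 2 listed starts, Ly86 chr13:37345095-37345344 on the plus strand and Myd88 chr9:119340019-119340268 on the minus strand. Capitals mark the matches to the motifs searched.
Cd180: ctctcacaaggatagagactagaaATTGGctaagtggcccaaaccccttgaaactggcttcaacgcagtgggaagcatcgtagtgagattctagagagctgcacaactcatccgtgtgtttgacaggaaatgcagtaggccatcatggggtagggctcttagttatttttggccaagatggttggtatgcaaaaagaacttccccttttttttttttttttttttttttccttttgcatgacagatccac
Ly86: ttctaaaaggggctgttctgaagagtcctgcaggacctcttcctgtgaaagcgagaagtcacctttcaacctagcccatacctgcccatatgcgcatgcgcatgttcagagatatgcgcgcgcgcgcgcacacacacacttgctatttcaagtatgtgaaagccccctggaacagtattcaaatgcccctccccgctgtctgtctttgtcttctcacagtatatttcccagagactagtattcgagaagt
Myd88: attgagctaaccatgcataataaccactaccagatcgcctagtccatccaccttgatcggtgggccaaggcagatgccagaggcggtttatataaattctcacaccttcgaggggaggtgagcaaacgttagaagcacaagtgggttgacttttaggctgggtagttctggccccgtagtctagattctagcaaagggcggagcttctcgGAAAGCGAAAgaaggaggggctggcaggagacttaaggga

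For 5 of the 8 genes a promoter was taken from the RefSeq table (Cd180, Ly86, Tlr2, Tlr3 and Myd88), while none was taken for Cd14, Tlr4 and Tlr7. Both strands were searched for 4 motifs, and overlapping matches of different motifs were allowed. The core of the interferon response element, GAAA, any 2 bases and again GAAA, matched in Myd88 from -40 to -31 relative to the start, and in 2.98% of all 32851 promoter windows. CCAAT matched in Cd180 from -226 to -222 on the opposite strand, where it reads ATTGG, and in 33.8% of all windows. An NF-kappaB form, GGGA, any 4 bases and CC, matched in Tlr2 and Tlr3 and in 17.6% of all windows. GAGGAA, the core bound by PU.1, the myeloid factor encoded by Spi1, matched in none of the 5 and in 23.3% of all windows. A match is a description of these letters only.

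The arrays differed in brightness and in the state of their RNA. The trimmed mean intensity ran from 82.8 to 244 at 6 h, from 116 to 183 at 24 h and from 205 to 244 in vehicle. The actin 5′ to 3′ signal ratio, which is low where RNA is shortened, was 0.425, 0.377, 0.284 and 0.0725 at 6 h (replicates 1, 2, 3 and 5). It was 0.529, 0.198, 0.475 and 0.423 at 24 h (replicates 1 to 4) and 0.484 to 0.593 in vehicle. The Gapdh 5′ to 3′ ratio was 0.104 on the 6 h replicate 5 and 0.684 to 1.08 on all other arrays. Among those, it was 0.711 on the 6 h replicate 3 and 0.804 on the 24 h replicate 2, whose actin ratios were low. Per array, 12.9% to 16.6% of intensities were negative. Values below are log2(intensity + 16) after quantile normalization, so 4.00 is the floor and folds of dim genes are understated. The defining skin markers were bright on all arrays, with Krt14 at 11.39 to 12.53 at 6 h, 11.61 to 13.02 at 24 h and 11.39 to 12.20 in vehicle.

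Across all 13710 genes bright enough to test, limma called 0 genes at an adjusted p under 0.05 in any of the 3 comparisons, and none of the 8 genes was called (0% of all genes, higher or lower). At an unadjusted p under 0.05, 8.02% of all genes were higher and 8.05% lower at 6 h, and 3 of the 8 genes were lower (Cd180, Tlr3 and Myd88). At 24 h, 3.16% were higher and 4.47% lower, and 1 of the 8 was lower (Cd180). At 24 h against 6 h, 3.76% were higher and 5.51% lower, and 1 of the 8 was higher (Myd88). All 8 genes had a mean below vehicle at 6 h, where 49.6% of all genes did, and all 8 had one below vehicle at 24 h, where 52.4% did. Their median difference from vehicle was -0.97 at 6 h and -0.85 at 24 h, against 0.0037 and -0.020 over all genes tested. The 6 h and vehicle groups did not overlap for 3 of the 8, Cd180, Tlr3 and Myd88, all lower (8.77% of all genes). The 24 h and vehicle groups did not overlap for 1 of the 8, Cd180, also lower (6.02% of all genes).

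**Figure D1:**
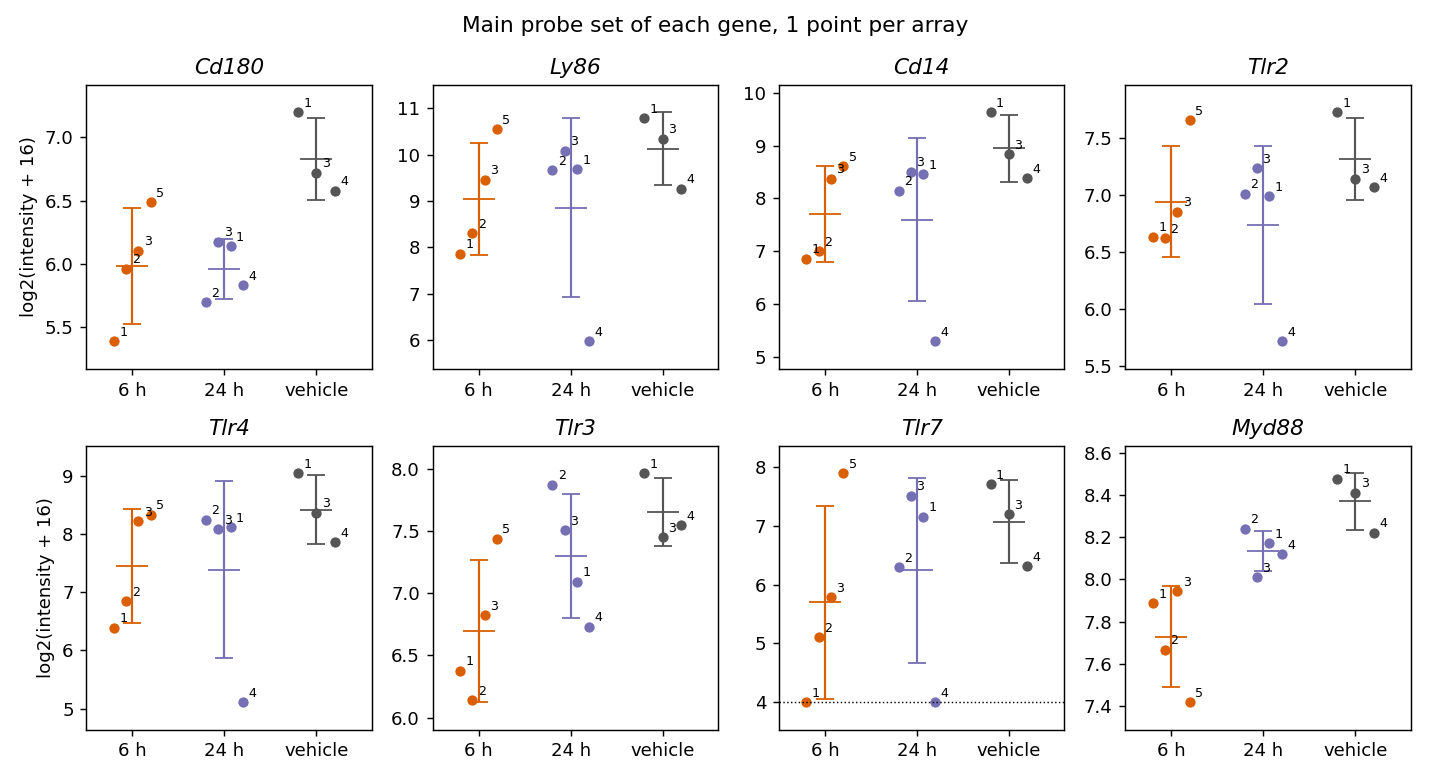
Main probe set of each of the 8 genes as log2(intensity + 16) on the y axis, by group on the x axis, with 1 point per array numbered by replicate and with the mean and SD as bars. The dotted line in the Tlr7 panel is the floor of 4.00. The 24 h replicate 4 lies far below the other 24 h arrays for Ly86, Cd14, Tlr2 and Tlr4 but not for Cd180 or Myd88.

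Cd180 was below every vehicle array on all 8 ABBV-075 arrays. It stood at 5.39, 5.96, 6.10 and 6.49 at 6 h (replicates 1, 2, 3 and 5), at 6.14, 5.70, 6.18 and 5.83 at 24 h (replicates 1 to 4), and at 7.20, 6.72 and 6.58 in vehicle (replicates 1, 3 and 4). The highest 6 h array lay close under the lowest vehicle array, while the highest 24 h array lay further below it. As deposited on the linear scale, before normalization between arrays, its intensities were 38.3, 37.0, 26.0 and 41.8 at 6 h, 66.4, 27.7, 42.9 and 39.0 at 24 h, and 175, 133 and 105 in vehicle. The groups did not overlap on the deposited values either. Without normalization, though, the median difference of all genes from vehicle was -0.68 at 6 h and -0.62 at 24 h in log2(intensity + 16). The share of all genes without overlap on the deposited values was not counted.

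The mean of Cd180 was 5.99 ± 0.46 at 6 h, 5.96 ± 0.23 at 24 h and 6.83 ± 0.32 in vehicle (SD, n = 4, 4 and 3). The difference from vehicle was -0.85 ± 0.26 at 6 h (SE), a value 1.80-fold lower, with a 95% interval from -1.42 to -0.27 and a limma adjusted p of 0.19. At 24 h it was -0.87 ± 0.26 (SE), or 1.83-fold lower, with a 95% interval from -1.44 to -0.30 and a limma adjusted p of 0.53. A lower difference was found for 6.13% of all genes at 6 h and for 3.57% at 24 h.

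Ly86, which Cd180 needs to reach the cell surface, varied far more within the groups than Cd180 did. Its values were 7.87, 8.31, 9.46 and 10.54 at 6 h, 9.69, 9.66, 10.08 and 5.98 at 24 h, and 10.78, 10.34 and 9.26 in vehicle, in the same order of replicates. Both ABBV-075 groups overlapped vehicle, and the 24 h replicate 4 stood apart from the other 24 h arrays. The difference from vehicle was -1.08 ± 0.94 at 6 h and -1.28 ± 0.94 at 24 h (SE), with limma adjusted p of 0.59 and 0.74. Without the 24 h replicate 4 the 24 h difference of Ly86 was -0.32, while that of Cd180 was -0.83.

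Cd14, which hands lipopolysaccharide to the Tlr4 complex, and Tlr4 itself followed much the same course over the arrays. Cd14 stood at 6.86, 7.0, 8.37 and 8.61 at 6 h, at 8.46, 8.14, 8.51 and 5.29 at 24 h, and at 9.63, 8.83 and 8.38 in vehicle. Tlr4 stood at 6.39, 6.84, 8.21 and 8.33 at 6 h, at 8.11, 8.24, 8.08 and 5.11 at 24 h, and at 9.04, 8.36 and 7.85 in vehicle. For both genes the 6 h replicates 1 and 2 and the 24 h replicate 4 were low, and the other ABBV-075 arrays overlapped vehicle or lay just below it.

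The difference from vehicle of Cd14 was -1.24 ± 0.75 at 6 h and -1.35 ± 0.75 at 24 h (SE), with limma adjusted p of 0.44 and 0.68. That of Tlr4 was -0.97 ± 0.75 at 6 h and -1.03 ± 0.75 at 24 h (SE), with limma adjusted p of 0.55 and 0.74. Without the 24 h replicate 4 the 24 h differences were -0.58 for Cd14 and -0.27 for Tlr4, and without the 6 h replicate 1 the 6 h difference of Tlr4 was -0.62. The 3 further probe sets of Tlr4 gave -0.33, -0.88 and 0.31 at 6 h and -0.21, -0.74 and -0.017 at 24 h. The one with the positive 6 h difference passed the brightness filter on only 1 array.

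Tlr2, which pairs with Tlr1 or Tlr6 to sense bacterial lipopeptides, had small differences. It stood at 6.63, 6.62, 6.85 and 7.65 at 6 h, at 6.99, 7.01, 7.24 and 5.72 at 24 h, and at 7.72, 7.14 and 7.07 in vehicle. Both groups overlapped vehicle, through the 6 h replicate 5 and the 24 h replicate 3. The difference was -0.37 ± 0.37 at 6 h and -0.57 ± 0.37 at 24 h (SE), with limma adjusted p of 0.65 and 0.71. Single arrays moved both values: at 6 h it was -0.16 without vehicle replicate 1 and -0.61 without the 6 h replicate 5, and at 24 h it was -0.36 without vehicle replicate 1 and -0.24 without the 24 h replicate 4.

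**Figure D2:**
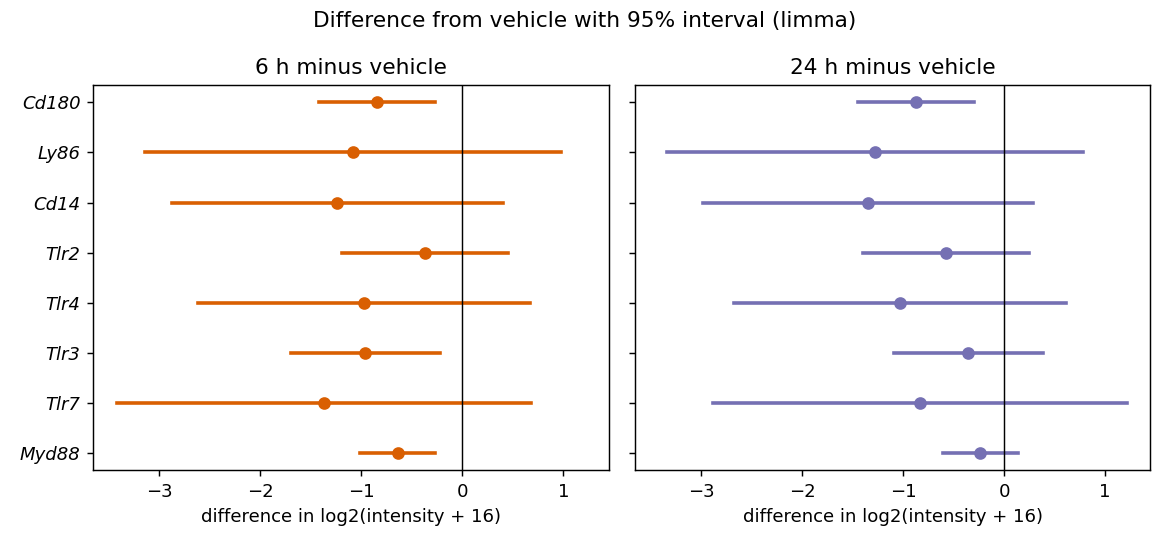
Difference from vehicle in log2(intensity + 16) on the x axis for each gene, with the limma estimate as a point and its 95% interval as a line, at 6 h on the left and 24 h on the right. All 16 points lie below 0, and the intervals that do not reach 0 are those of Cd180, Tlr3 and Myd88 at 6 h and Cd180 at 24 h.

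Among the endosomal receptors, Tlr3 had its lowest mean at 6 h. It stood at 6.38, 6.14, 6.82 and 7.44 at 6 h, at 7.09, 7.87, 7.51 and 6.73 at 24 h, and at 7.97, 7.45 and 7.55 in vehicle. The highest 6 h value, 7.44 in replicate 5, and the lowest vehicle value, 7.45, were almost equal, so that the lack of overlap at 6 h rests on 1 close pair. The difference was -0.96 ± 0.34 at 6 h, or 1.95-fold lower, and -0.35 ± 0.34 at 24 h (SE), with limma adjusted p of 0.23 and 0.80. The 24 h difference was -0.17 without the 24 h replicate 4, -0.55 without the 24 h replicate 2 and -0.20 without vehicle replicate 1. The second Tlr3 probe set gave -0.76 at 6 h and -0.45 at 24 h.

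Tlr7 reached the floor on 2 arrays. It stood at 4.00, 5.11, 5.78 and 7.89 at 6 h, at 7.15, 6.29, 7.51 and 4.00 at 24 h, and at 7.71, 7.20 and 6.31 in vehicle. The 6 h replicate 1 and the 24 h replicate 4 therefore give only an upper bound, and the fold from the means depends on the pseudocount. The difference was -1.37 ± 0.93 at 6 h and -0.83 ± 0.93 at 24 h (SE), with limma adjusted p of 0.49 and 0.84. At 24 h it was -0.51 without vehicle replicate 1 and -1.27 without the 24 h replicate 3. Without the 24 h replicate 4 it was -0.086, and the remaining 24 h arrays lay within the vehicle range or just below it. The further Tlr7 probe sets passed the brightness filter on 4 arrays and 1 array.

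Myd88, the adaptor that most Toll-like receptors and the interleukin-1 receptor share, had the tightest groups of the 8. It stood at 7.89, 7.67, 7.94 and 7.42 at 6 h, at 8.17, 8.24, 8.01 and 8.12 at 24 h, and at 8.48, 8.41 and 8.22 in vehicle. All 4 arrays at 6 h lay below all 7 others, and the 24 h arrays overlapped vehicle through replicate 2. As deposited, before normalization between arrays, the 6 h replicate 1 was at 345, above the 24 h arrays at 167 to 306. This array was below vehicle at 367 to 499, so on the deposited values 6 h overlapped 24 h but not vehicle. Without normalization, though, the median difference of all genes from vehicle was itself -0.68 at 6 h. The share of all genes without overlap on the deposited values was not counted. The mean was 7.73 ± 0.24 at 6 h, 8.13 ± 0.097 at 24 h and 8.37 ± 0.13 in vehicle (SD, n = 4, 4 and 3). The difference from vehicle was -0.64 ± 0.17 at 6 h (SE), or 1.56-fold lower, with a 95% interval from -1.01 to -0.27 and a limma adjusted p of 0.16. At 24 h it was -0.23 ± 0.17 (SE), with a limma adjusted p of 0.74.

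Between the times, the 24 h arrays were compared with the 6 h arrays directly. The groups did not overlap for 1 of the 8 genes, Myd88, which was higher at 24 h (1.92% of all genes, with 3.54% lower). The difference was 0.41 ± 0.16 (SE) with a limma adjusted p of 0.45, and the deposited Myd88 values of the groups did overlap. Tlr3 was higher by 0.61 ± 0.31 (SE), with overlapping groups and a limma adjusted p of 0.59. Cd180 differed by -0.026 ± 0.24 (SE), with a 95% interval from -0.56 to 0.50. For Ly86, Cd14, Tlr2 and Tlr4 the difference lay between -0.20 and -0.056, and it was above 0 for each of them without the 24 h replicate 4, at 0.77, 0.67, 0.14 and 0.71. In all, 5 of the 8 genes had a difference below 0, where 52.6% of all genes did.

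**Figure D3:**
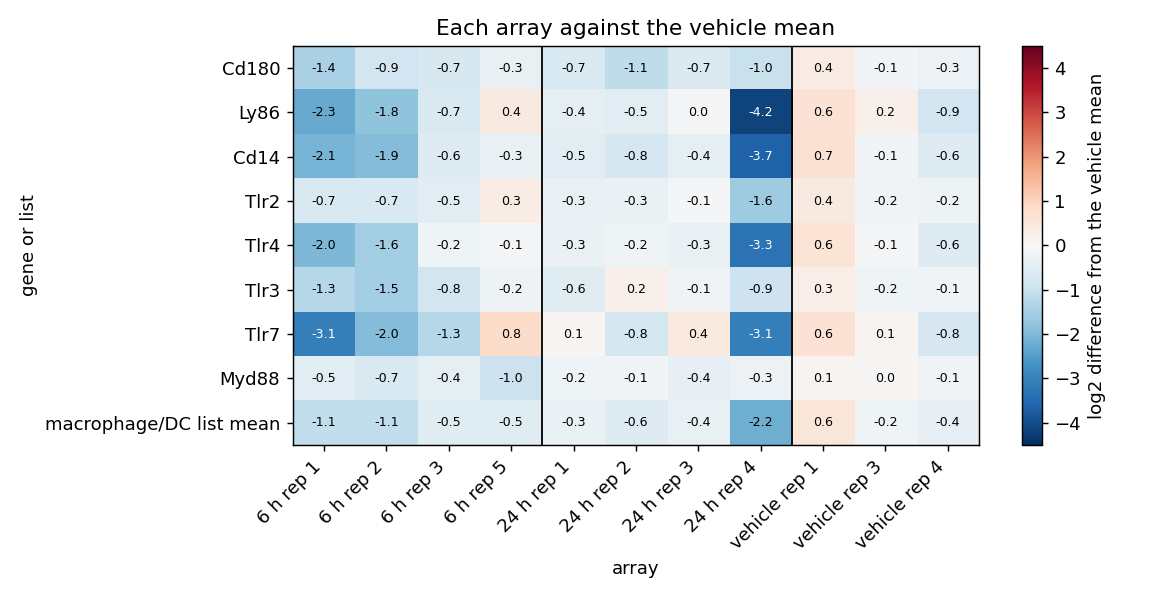
Each array's log2(intensity + 16) minus the vehicle mean, with genes and the mean of the macrophage and dendritic cell markers in rows and arrays in columns, blue below and red above the vehicle mean. Ly86, Cd14, Tlr4 and Tlr7 are darkest in the 6 h replicates 1 and 2 and the 24 h replicate 4, Cd180 is blue on all 8 ABBV-075 arrays, and Myd88 is darkest in the 6 h replicate 5.

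The arrays fell into the same places for most of these genes. The 6 h replicate 5 was the highest of its group for 7 of the 8 and the lowest for Myd88. The 24 h replicate 4 was the lowest of its group for 6 of the 8, all but Cd180 and Myd88. Vehicle replicate 1 was the highest of the vehicle arrays for all 8. As a description over the 11 arrays, which share their groups and their brightness, Ly86, Cd14, Tlr2, Tlr4 and Tlr7 correlated with one another at r from 0.88 to 0.99. Cd180 correlated with them at 0.66 to 0.74, and Myd88 at 0.049 to 0.29.

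Markers of macrophages and dendritic cells, the skin cells richest in these receptors, lay below vehicle beside them. Of 17 listed, 16 were measured, and 15 had a mean below vehicle at 6 h and 16 at 24 h, with medians of -0.63 and -0.87. By limma none was called, and 4 at 6 h and 3 at 24 h had an unadjusted p under 0.05. The summed intensity of the list was 17468 to 28779.7 at 6 h, 6937.5 to 30243 at 24 h, and 25434 to 44662 in vehicle. No defining marker was at the floor: Csf1r lay at 11.15 to 11.86 at 6 h, 10.28 to 12.03 at 24 h and 11.61 to 11.90 in vehicle, and Cd68 at 7.02 to 7.94, 5.99 to 8.59 and 8.26 to 9.99 in the same order. The 24 h replicate 4 had the lowest sum, and without it the 24 h medians were -0.30 for the markers and -0.26 for the 8 genes.

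Set against the mean of these markers on each array, Cd180 gave differences from vehicle of -0.022 (6 h) and -0.019 (24 h). The same quantity was 0.18 and 0.62 for Myd88, 0.45 and 0.28 for Tlr2, and -0.42 and -0.49 for Cd14. At 24 h the mean of Cd180 hides a wide spread. Its value minus the marker mean ran from -3.52 to -1.75 there, highest on replicate 4 (median -3.31, SD 0.82). In vehicle it ran from -3.15 to -2.84 (median -2.87), so the 24 h median lay below every vehicle array. Over the 11 arrays the marker mean correlated at r = 0.98 with Cd14, 0.95 with Tlr4, 0.93 with Ly86, 0.91 with Tlr2, 0.83 with Tlr7, 0.72 with Cd180, 0.69 with Tlr3 and 0.39 with Myd88, as a description. In whole skin, fewer cells of a type and less of its RNA per cell cannot be told apart. The part of the marker shift in the differences of these genes was not tested. Without the 3 arrays of an actin ratio under 0.3 (the 6 h replicates 3 and 5 and the 24 h replicate 2), left out after the data were seen, the 6 h differences were -1.20 for Cd180, -0.59 for Myd88, -1.42 for Tlr3 and -2.01 for Cd14, none called by limma. Single arrays also moved the 6 h values: that of Ly86 was -0.70 without the 6 h replicate 1 and -1.57 without the 6 h replicate 5, and that of Tlr7 was -0.79 and -2.14.

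The defining markers of B cells, which also carry Cd180, were dim. Cd79a was at or near the floor on every array, between 4.00 and 4.36. Ms4a1 lay at 4.78 to 6.07 at 6 h, 4.90 to 5.27 at 24 h and 4.75 to 5.13 in vehicle. Of 8 B cell markers measured, 4 passed the brightness filter, with medians of 0.020 at 6 h and -0.23 at 24 h. The summed intensity of the 8 measured was 308 to 588 at 6 h, 243 to 955 at 24 h and 685 to 1219 in vehicle. Ighm, the heavy chain of immunoglobulin M, had the largest difference among them, -1.48 ± 0.46 at 6 h and -1.01 ± 0.46 at 24 h (SE), with limma adjusted p of 0.19 and 0.65.

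The other skin cell lists differed from vehicle in both directions. Where most of the 8 genes were low, in the 6 h replicates 1 and 2 and the 24 h replicate 4, the summed intensity of the keratinocyte markers was 54093, 48838 and 56805, the 3 highest of the 11 arrays, whose other sums ran from 27358 to 38656. Keratinocyte markers had medians of 0.31 at 6 h and 0.24 at 24 h, with 7 and 6 of 8 above vehicle. Fibroblast markers had medians of -0.32 and -0.62, with 7 of 7 below vehicle at both times. Endothelial markers stood at -0.70 and -0.68, adipocyte markers at -0.77 and -0.84, and skeletal muscle markers at -0.31 and 0.17. T cell markers stood at 0.12 and 0.15, and neutrophil markers at 0.13 and -0.023. None of these genes was called.

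The rest of the pathway was read from lists put together with these results known. Of the Toll-like receptors outside the 8 genes, 7 of 8 were measured, and 6 had a mean below vehicle at each time, with medians of -0.58 at 6 h and -0.49 at 24 h. Tlr13, which senses bacterial ribosomal RNA in mice, differed by -1.51 ± 0.51 at 6 h and -1.29 ± 0.51 at 24 h (SE). Tlr9, the receptor for bacterial DNA, was the one receptor above vehicle: it averaged 6.02 at 6 h, 5.93 at 24 h and 5.32 in vehicle, a difference of 0.70 ± 0.22 and 0.62 ± 0.22 (SE), with limma adjusted p of 0.19 and 0.56. Its ABBV-075 arrays lay above all vehicle arrays at both times (9.77% and 5.09% of all genes). Tlr8 differed by -1.31 ± 0.48 at 6 h, Tlr12 by -0.58 ± 0.25 at 6 h, Tlr1 by -1.35 ± 0.68 at 24 h and Tlr6 by -0.49 ± 0.28 at 24 h (SE). Tlr8 ran from the floor of 4.00 to 5.19 at 6 h and from 4.89 to 6.88 in vehicle, so these groups overlapped. Tlr6 and Tlr12 were also dim, with group means from 5.05 to 5.83.

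Co-receptors and ligand carriers also lay below vehicle, with 8 of 8 measured genes at 6 h and 7 of 8 at 24 h and medians of -0.71 and -0.47. Lbp, the carrier of lipopolysaccharide in plasma, averaged 8.64 at 6 h, 8.39 at 24 h and 10.08 in vehicle. Its difference was -1.43 ± 0.48 at 6 h and -1.68 ± 0.48 at 24 h (SE), with limma adjusted p of 0.22 and 0.53. Lbp did not overlap vehicle at either time (8.77% and 6.02% of all genes, lower). Ly96, also called MD-2 and the partner of Tlr4 as Ly86 is of Cd180, differed by -0.88 ± 0.51 and -0.66 ± 0.51, and Cd36, a scavenger receptor, by -1.05 ± 0.56 and -0.78 ± 0.56 (SE). Cnpy4 differed by -0.66 ± 0.34 at 6 h and the chaperone Hsp90b1 by -0.22 ± 0.19 at 24 h (SE).

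**Figure D4:**
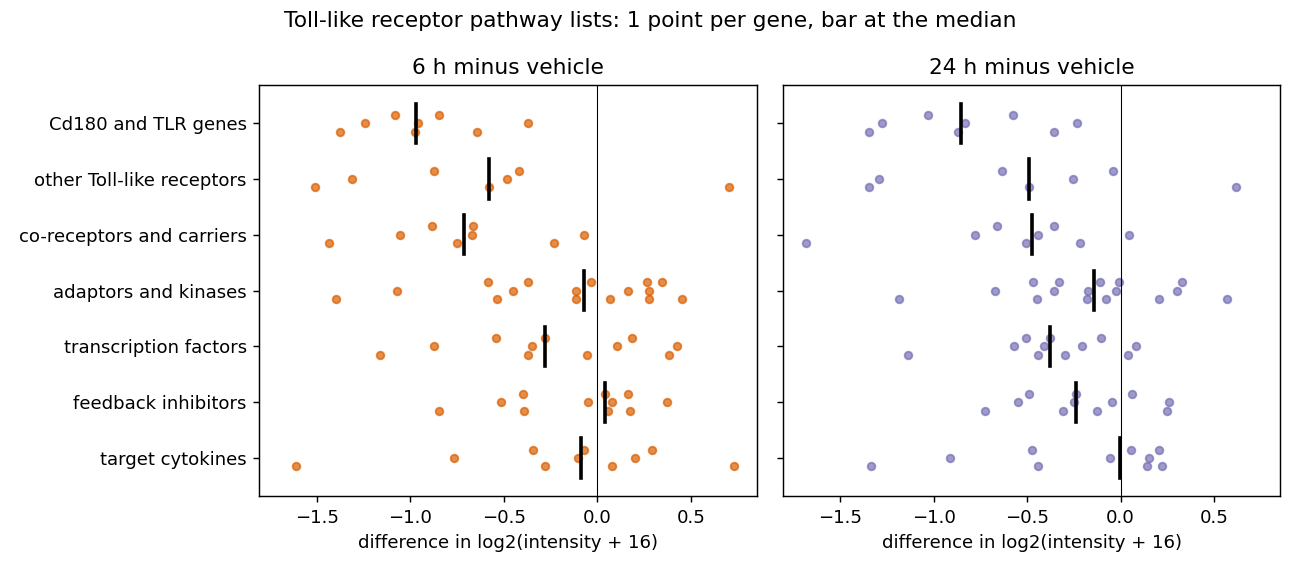
Difference from vehicle in log2(intensity + 16) on the x axis, 1 point per gene and a black bar at the median of each list, at 6 h on the left and 24 h on the right. The medians of the 8 genes lie at -0.97 and -0.85, those of the other receptors and co-receptors between -0.71 and -0.47, and those of adaptors, inhibitors and cytokines nearer to 0.

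Downstream of the receptors the list medians lay nearer to 0 and genes differed in both directions. Of 16 adaptors and kinases tested, 9 were below vehicle at 6 h and 12 at 24 h, with medians of -0.072 and -0.14. Tirap, which brings Myd88 to Tlr2 and Tlr4, differed by -0.37 ± 0.19 and -0.47 ± 0.19 (SE). It did not overlap vehicle at either time (8.77% and 6.02% of all genes, lower). At 6 h the kinase partner Tab1 differed by -1.40 ± 0.51, reaching the floor on some arrays, and Irak2 by -0.53 ± 0.23 (SE). At 24 h Irak1, a kinase recruited by Myd88, was above all vehicle arrays (5.09% of all genes) by 0.57 ± 0.17 (SE). Tbk1 was below all vehicle arrays at 24 h (6.02% of all genes), with a difference of -0.33 ± 0.16 (SE). Pik3ap1, an adaptor of immune cells, differed by -1.07 ± 0.55 and -1.19 ± 0.55 (SE). None of the 16 was called.

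Of 11 transcription factors tested, 7 were below vehicle at 6 h and 9 at 24 h, with medians of -0.28 and -0.38. Spi1 differed by -0.87 ± 0.32 at 6 h and -0.57 ± 0.32 at 24 h, and Irf7, which drives interferon genes, by -1.16 ± 0.48 and -1.14 ± 0.48 (SE). The NF-kappaB subunit Rela differed by -0.35 ± 0.15 at 6 h, Nfkb2 by 0.38 ± 0.18 at 6 h, and Rel by -0.41 ± 0.18 and Relb by -0.38 ± 0.34 at 24 h (SE). Of 11 feedback inhibitors, 5 were below vehicle at 6 h and 8 at 24 h, with medians of 0.042 and -0.24. Irak3, an inhibitor of Toll-like receptor signalling in macrophages, differed by -0.51 ± 0.21 and -0.73 ± 0.21 (SE). It did not overlap vehicle at either time (8.77% and 6.02% of all genes, lower). Nfkbib differed by -0.84 ± 0.33 at 6 h and -0.49 ± 0.33 at 24 h, and Dusp1 by -0.55 ± 0.25 at 24 h (SE). Sigirr, a receptor that dampens Toll-like receptor signalling, differed by 0.37 ± 0.24 and Tnip1 by -0.39 ± 0.26 at 6 h, and Tnfaip3, which encodes the inhibitor A20, differed by 0.26 ± 0.23 at 24 h (SE).

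The cytokine and adhesion genes that NF-kappaB switches on were mostly dim. Of 16, 6 did not pass the brightness filter (Tnf, Il6, Il12b, Cxcl2, Ccl3 and Nos2), and the other 10 had 6 below vehicle at 6 h and 5 at 24 h, with medians of -0.087 and -0.00088. Ccl2, which attracts monocytes, averaged 6.06 at 6 h, 6.34 at 24 h and 7.67 in vehicle, a difference of -1.61 ± 0.65 and -1.34 ± 0.65 (SE). Cxcl1, which attracts neutrophils, was above all vehicle arrays at 6 h (9.77% of all genes) by 0.73 ± 0.27 (SE). The adhesion molecule Icam1 was below all vehicle arrays at 24 h (6.02% of all genes), with a difference of -0.47 ± 0.18 (SE). Its highest 24 h value, 7.91, lay close under its lowest vehicle value, 7.94. Cxcl10, an interferon-induced chemokine, differed by -0.76 ± 0.46 and -0.91 ± 0.46 (SE). Ptgs2 differed by -0.34 ± 0.28 at 6 h and Ccl5 by -0.44 ± 0.37 at 24 h (SE). None of the genes of these 6 pathway lists was called by limma.

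Where the choice of processing decides a call, it did so at 6 h. On the deposited intensities without normalization between arrays, Cd180, Cd14, Tlr3 and Myd88 passed at limma adjusted p of 0.020, 0.043, 0.017 and 0.039, where 6.25% of all genes tested were called lower and the median of all genes was itself shifted by -0.68. With weights estimated for each array, 7 of the 8 passed at 6 h, all but Tlr2, with limma adjusted p from 0.0084 to 0.044, where 10.5% of all genes were called lower, and none of the 8 passed at 24 h.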

How the data were processed

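RNA from mouse skin was measured on 11 Affymetrix mouse arrays, from 200 ng of total RNA per the labels' protocols. The authors deposited 1 intensity per probe set and array in linear units. How these were computed from the scans and scaled, and on which genome build, is not given in the sources used. No detection calls were used. Probe sets were named from the platform annotation, with 34958 matching 1 gene, 932 several and 9211 none. For 34754 of those matching 1 gene, the RefSeq symbol was taken through the Entrez identifier. No array was a copy of another of its group.

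Intensities were quantile-normalized, set to at least 0 and taken as log2(intensity + 16). The probe set with the highest mean over the arrays stood for its gene. A gene was tested if it exceeded its array's 40th percentile on 3 or more arrays, which left 13710 of 18194 genes and all 8 genes described. One limma fit (limma 3.58.1, R 4.3.3) over the 11 arrays, in which each group had a mean and no covariate entered, gave all differences, standard errors and two-sided p-values, adjusted by Benjamini-Hochberg over all genes kept, with a threshold of 0.05. The fit was tested on simulated data. The number of arrays limits the precision. The labels number the arrays as replicates, each taken here as 1 mouse, and name no batch.

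The 8 genes, the gene lists and the normalization were chosen with earlier results of these data known. Genes named from a pathway list were the 4 with the smallest unadjusted p in each comparison with vehicle, beside fixed defining markers; cell type lists are given by their medians, sums and defining markers. Genes with the most similar pattern were the 3 with the highest Pearson correlation over the arrays. Deviations from the group means of vehicle and 24 h arrays with the same replicate number correlated at 0.25, 0.13 and 0.21. Those of different numbers correlated at -0.35 to 0.21. The values of the same-numbered vehicle and 24 h arrays were all positive, and the highest of them lay above that range. Same-numbered vehicle and 6 h arrays correlated at -0.12 and -0.074, and 6 h and 24 h arrays at -0.064, -0.35 and 0.17. The highest value was 0.56, for the 6 h replicate 1 and the 24 h replicate 4. Alternatives covered normalization, pseudocount, filter, probe set choice, array weights, a replicate block, the groups fitted, an exact permutation test and each array left out. After the data were seen, the actin ratio was added as a covariate and as a ground for leaving out arrays.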

Additional observations from a re-analysis of the deposited data

Results flagged for a closer look

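One array, the 24 h replicate 4, stood apart from the other 3 arrays of its group for 4 of the 8 genes, by a gap to its nearest neighbour that was large beside the range of the whole group. Ly86 was 5.98 on this array and next lowest at 9.66, so that the gap took a share of 0.898 of the range. Cd14 was 5.29 with the next at 8.14 (a share of 0.887), Tlr2 was 5.72 with the next at 6.99 (0.836), and Tlr4 was 5.11 with the next at 8.08 (0.949), all in log2(intensity + 16). Such a gap was looked for in 16 groups of 4 arrays, 8 genes at both times, and chance gives about 1 in 20. The 4 genes correlate over the arrays, so these are not separate observations. On the same array Cd180 was 5.83 and Myd88 8.12, both inside the range of the other 24 h arrays, and its actin 5′ to 3′ ratio was 0.423. The summed intensity of the macrophage and dendritic cell markers there was 6937.5, against 20348 to 30243 on the other 24 h arrays. Other lists stood apart on it too: the sum was 22658 for fibroblast markers, against 47323 to 53087, 7263 for adipocyte markers, against 17250.3 to 24202, and 56805 for keratinocyte markers, against 27358 to 35809 on the other 24 h arrays. The part of these marker levels in the values of the 8 genes was not tested.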

How the results depend on the processing

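Over 26 alternatives, all 208 differences of the 8 genes from vehicle stayed below 0 at 6 h and all 208 at 24 h. Some alternatives, such as a changed filter or a fit of only the 2 groups, cannot change a difference. All of them use the same arrays, so these counts are a description and not separate support. The number of genes called at 6 h was 0 as reported, 859 on values as deposited (857 lower), 18 with no filter, 7 with the mean of probe sets, 2498 with array weights, 1 with only the 2 groups compared and 0 to 22 with 1 array left out (22 without the 24 h replicate 4, 2 without the 6 h replicate 2). At 24 h it was 6 on values as deposited, 1 with no filter, 59 with array weights, 2 with only the 2 groups and 0 to 1 with 1 array left out (1 without the 6 h replicate 2). For 24 h against 6 h it was 2 with probe sets averaged, 1 once x_at and s_at probe sets were dropped, 423 with array weights, 3 with the actin ratio as covariate and 0 to 7 with 1 array left out (7 without the 6 h replicate 5, 1 without the 6 h or the 24 h replicate 2). Of the 8 genes, 4 were called at 6 h on values as deposited and 7 with array weights; otherwise 0 were, with 1 array left out too (0 to 0). With the replicate block, which pairs same-numbered arrays, 1 gene was called at 6 h and none of the 8 in any comparison, but the 6 h median of the 8 genes was -1.67 in place of -0.97, with Ly86 at -2.45, Cd14 at -2.14, Tlr2 at -0.90, Tlr4 at -1.95 and Tlr7 at -2.75. The exact permutation test gave 0.0286 for Myd88 at 6 h, Cd180 at 24 h and Myd88 at 24 h against 6 h, the smallest either design allows, before adjustment over 24 comparisons. The difference of 24 h from 6 h turned above 0 on values as deposited for Cd180 (0.18), Cd14 (0.020) and Tlr4 (0.090), with cyclic loess for Cd180 (0.041) and with a pseudocount of 64 for Tlr4 (0.034). For Cd180, Ly86, Cd14, Tlr2 and Tlr4 in turn it was 0.17, 1.05, 0.98, 0.27 and 0.91 with array weights, 0.20, 0.96, 0.69, 0.26 and 0.74 with the replicate block, 0.39, 0.46, 0.46, 0.012 and 0.47 without the 3 arrays of an actin ratio under 0.3, and 0.10, 0.36, 0.25, 0.037 and 0.35 with the actin ratio as covariate. With 1 array left out it ran from -0.22 to 0.14 for Cd180, -0.61 to 0.77 for Ly86, -0.42 to 0.67 for Cd14, -0.37 to 0.14 for Tlr2, -0.40 to 0.71 for Tlr4 and -0.021 to 1.30 for Tlr7. The cause of these changes was not tested. Leaving out the 3 arrays of low actin ratio left only replicates 1 and 2 at 6 h.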

Other observations

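The genes whose values ran most like each of the 8 over the 11 arrays were mostly different for each, with Mrc1 shared by Cd14 and Tlr4. For Cd180 they were Adgre5, an adhesion receptor of leukocytes, at r = 0.93 (Spearman's rho 0.85), Rgs7bp at 0.92 and Acss1 at 0.91. For Ly86 they were Nck1 at r = 0.996, Nrp1 at 0.99 and Ms4a6b at 0.99. For Cd14 they were Cd53, Folr2 and Mrc1, all at 0.99, of which Folr2 and Mrc1 are receptors of tissue macrophages. For Tlr4 they were Cyba, a subunit of the phagocyte oxidase, Mrc1 and Ms4a6c, all at 0.99. Without the 2 arrays farthest from the median these fell to 0.76 for Cd180 with Acss1 and stayed between 0.89 and 0.99 for the other pairs named so far.

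Tlr2 ran most like Fap, a protease of activated fibroblasts, at r = 0.98, with Naglu and Tm6sf1 at 0.98. Tlr3 ran most like Sass6 at 0.99, Slc16a7 at 0.95 and Rnf180 at 0.95, and Tlr7 most like Gpr34, a receptor of microglia and macrophages, at 0.98, Tspan8 at 0.97 and Fchsd2 at 0.97. Myd88 ran most like Gna15 at 0.95, Ang at 0.94 and Lmf1 at 0.94. These are the highest correlations among 13710 genes over arrays that share groups and brightness, so no p is given. For Tlr7 the 2 arrays at the floor enter the correlation at that bound.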
